A study of Rattus norvegicus with 21 samples.

Results

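The levels of 8 genes of mitochondrial shape, turnover and renewal were followed across rat heart tissue after coronary artery ligation. Of the 9 genes chosen by symbol, Mfn1, Opa1, Dnm1l, Pink1, Fundc1, Bnip3l, Tfam and Nrf1 had a row among the 17085 gene symbols, and all 8 were among the 11742 symbols with enough counts to be tested. Mfn2 was not analysed here. The samples were bulk RNA sequencing libraries of the infarct zone of Sprague Dawley rats, with 3 libraries in each of 7 groups, and every injured heart was collected 24 h after infarction began.

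In MI1h_F and MI1h_R the left anterior descending artery was ligated for 1 h and then reperfused for 23 h. In MI6h_F and MI6h_R it was ligated for 6 h and reperfused for 18 h. In MI24h_F and MI24h the ligature stayed for 24 h. Sham was the control without infarction. The letter F is not spelled out in the labels, and the design text names a fenofibrate pretreatment. Fenofibrate is a lipid-lowering drug that activates PPARα, a nuclear receptor of fatty acid use. No Sham group with F was among the samples, and nothing in the labels ties each library to its own animal, so p-values measure the spread between libraries, which may be technical.

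Mitochondria form a network that is joined by fusion and divided by fission. Mitofusins join the outer membranes, OPA1 joins the inner membranes and shapes the cristae, and DRP1, the product of Dnm1l, constricts and divides the organelle. Damaged mitochondria are delivered to the lysosome by mitophagy, either after the kinase PINK1 has set off their marking with ubiquitin or through receptors in the outer membrane, such as FUNDC1 and BNIP3L, that bind the autophagosome directly. Renewal depends on nuclear factors such as NRF1, which drives genes of respiration, and on TFAM, which packages and transcribes mitochondrial DNA. Cardiomyocytes are among the cells richest in mitochondria.

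RefSeq gave the promoter of 6 of the 8 genes, from 250 bases before to 50 after the gene start, and 4 of those windows held at least 1 of the motifs searched. Those 4 are shown because they belong to genes that fell against Sham in every injured group under the scaling used here. Capitals mark the matches.
Mfn1: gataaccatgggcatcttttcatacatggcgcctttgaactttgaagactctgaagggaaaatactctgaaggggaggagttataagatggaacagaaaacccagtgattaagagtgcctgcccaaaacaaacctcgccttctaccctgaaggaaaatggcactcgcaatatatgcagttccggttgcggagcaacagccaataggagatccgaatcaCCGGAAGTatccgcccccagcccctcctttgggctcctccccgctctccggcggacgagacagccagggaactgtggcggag
Opa1: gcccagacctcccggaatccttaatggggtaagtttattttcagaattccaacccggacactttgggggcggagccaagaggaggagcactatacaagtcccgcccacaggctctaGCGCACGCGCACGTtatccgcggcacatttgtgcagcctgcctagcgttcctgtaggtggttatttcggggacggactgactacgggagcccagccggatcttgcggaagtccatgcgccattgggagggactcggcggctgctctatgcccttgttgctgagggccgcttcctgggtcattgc
Pink1: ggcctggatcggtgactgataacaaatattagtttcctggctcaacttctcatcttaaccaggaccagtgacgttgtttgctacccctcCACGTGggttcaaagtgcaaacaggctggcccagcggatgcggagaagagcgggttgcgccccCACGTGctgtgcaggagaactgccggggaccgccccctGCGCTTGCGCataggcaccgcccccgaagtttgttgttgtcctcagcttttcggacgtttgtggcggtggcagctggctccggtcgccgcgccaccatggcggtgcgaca
Tfam: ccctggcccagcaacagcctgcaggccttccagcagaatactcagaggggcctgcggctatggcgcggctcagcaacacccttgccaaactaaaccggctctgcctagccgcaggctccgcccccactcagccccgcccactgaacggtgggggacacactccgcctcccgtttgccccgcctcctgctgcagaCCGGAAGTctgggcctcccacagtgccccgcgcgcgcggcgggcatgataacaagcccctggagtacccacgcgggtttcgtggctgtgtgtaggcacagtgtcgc
In the GRCr8 build these windows lie at chr2:117241508-117241807 on the plus strand for Mfn1, chr11:84689851-84690150 on the minus strand for Opa1, chr5:155825901-155826200 on the minus strand for Pink1 and chr20:17355123-17355422 on the plus strand for Tfam, and each is written in the direction of its gene.

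The motifs were searched on both strands. The ETS factor motif CCGGAAGT stood 32 bases before the start of Mfn1 and 56 bases before that of Tfam, and it occurred in 3.81% of the 33469 rat promoter windows of the same length. The NRF1 motif, GCGCA and GCGC with 1 base between them, occurred in 4.25% of all windows. Opa1 had it 134 bases before its start, where it overlapped a match of the hypoxia response element core ACGTG on the other strand. Pink1 had it 60 bases before its start on the other strand, and ACGTG at a pair of places, each read on both strands. ACGTG occurred in 19.3% of all windows. The motif AAGGTCA, bound by estrogen-related receptors, was in none of the 6 windows and in 4.61% of all. The windows of Dnm1l and Nrf1 held no match, and those of Fundc1 and Bnip3l were not in the table.

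Total counts per library ran from 12208041 to 18393795. TMM scaling factors were 0.535 to 0.677 in Sham and 0.996 to 1.17 in the injured groups, so a comparison with Sham depends on the scaling. Transcripts of the mitochondrial genome held 11.3% to 20.2% of the counts in the injured libraries and 33.5% to 38.5% in Sham. The summed CPM (normalised counts, scaled to library size and TMM factor) of 13 of 14 listed cardiomyocyte markers ran from 3295 to 20217 in the injured libraries and from 69281 to 130834 in Sham, and none of the 13 was at 0 throughout. Those of 9 of 10 neutrophil markers summed to 251 to 3055 CPM in the injured libraries and 22 to 86 in Sham. In bulk tissue, fewer cells of a type and less RNA per cell cannot be told apart.

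Without F and with TMM scaling, the injured hearts had less RNA of Mfn1, Opa1, Pink1, Fundc1 and Tfam than Sham in all 3 injuries, and more Nrf1 in MI6h_R and MI24h. For Tfam in all 3 injuries and Opa1 in MI1h_R and MI6h_R the log2 fold change was above 0 on TPM. Tfam in MI24h was called higher on that scale (limma adjusted p 0.0379). Pink1 moved most, and fell 9.32-fold to 10.6-fold over the 3 injuries. Of the 8 genes, edgeR called 6 lower and 1 higher in MI24h, where 54.3% of all genes were called (28.0% higher and 26.2% lower). In MI1h_R it called 6 lower and none higher, where 49.5% of all genes were called (25.4% higher and 24.1% lower). In MI6h_R it called 7 lower and 1 higher, where 57.2% of all genes were called (29.3% higher and 28.0% lower). The median log2 fold change of the 8 genes was -0.79 in MI1h_R, -0.99 in MI6h_R and -0.90 in MI24h, and that of all genes was between 0.055 and 0.073. All 6 comparisons with Sham share the same 3 Sham libraries. The calls of Mfn1, Opa1, Pink1 and Fundc1 against Sham held in all 6 groups without each library in turn.

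The scaling sets how many genes of the whole table rise or fall against Sham. In MI24h, 3293 genes were called higher and 3078 lower with TMM. With library size alone the counts were 6484 higher and 1504 lower, and on the deposited TPM (counts scaled by transcript length and library) they were 7375 and 1208. The median of all genes moved to 0.80 and 0.83 on these scales. Against that shift, Mfn1 and Pink1 kept their lower level in all 6 injured groups under every scaling tried.

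**Figure D1:**
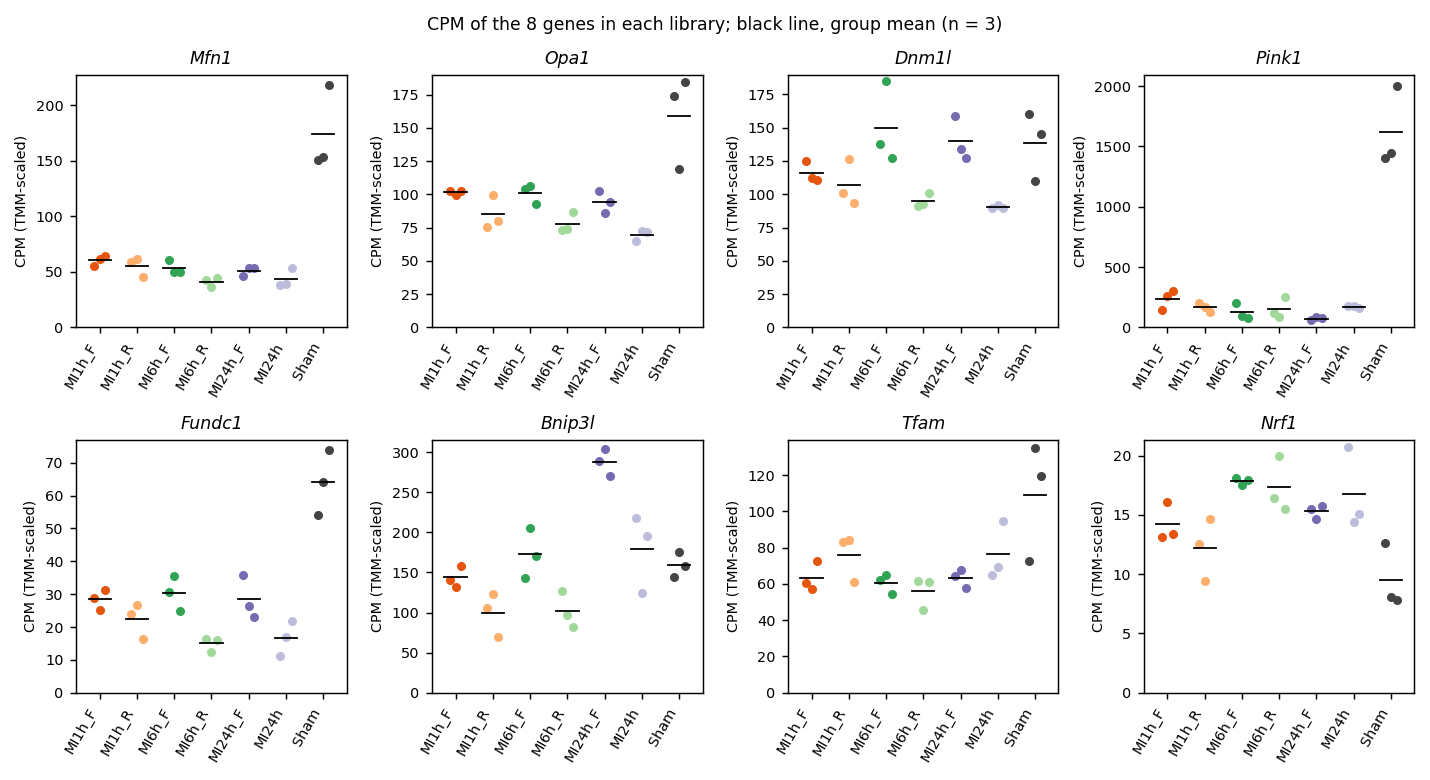
CPM after TMM scaling on the vertical axis for each of the 8 genes, with the 7 groups along the horizontal axis, 1 point per library and a black line at the mean of 3. All 18 injured libraries lie under the 3 Sham libraries for Mfn1, Opa1, Pink1 and Fundc1, while the points of Dnm1l, Bnip3l, Tfam and Nrf1 overlap those of Sham in at least some groups.

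Mfn1, the mitofusin that tethers and fuses outer membranes, had 55.6, 62.0 and 64.2 CPM in MI1h_F and 58.5, 62.0 and 45.4 in MI1h_R. It had 60.9, 49.6 and 50.2 CPM in MI6h_F and 42.5, 36.4 and 44.5 in MI6h_R. The level was 46.3, 53.1 and 53.2 CPM in MI24h_F, 38.6, 39.3 and 53.2 in MI24h and 151, 153 and 218 in Sham. Every injured library was below every Sham library, all MI1h_F libraries were above those of both 24 h groups, and the libraries of MI6h_R were below those of every other injured group except MI24h. Mfn1 fell 3.15-fold in MI1h_R (log2 fold change -1.66 ± 0.18, SE), 4.23-fold in MI6h_R (-2.08 ± 0.18) and 3.98-fold in MI24h (-1.99 ± 0.18), with edgeR adjusted p of 2.44e-06, 1.93e-07 and 3.08e-07 in that order. With F the log2 fold changes against Sham were -1.52 in MI1h_F, -1.70 in MI6h_F and -1.77 in MI24h_F, all called. On the TPM scale the fall was smaller, from -0.39 in MI1h_F to -0.95 in MI24h, and still called in all 6 groups.

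Opa1, the inner membrane fusion GTPase, had 102, 99.7 and 103 CPM in MI1h_F and 75.5, 99.5 and 80.1 in MI1h_R. It had 104, 107 and 92.9 CPM in MI6h_F and 73.4, 73.9 and 86.6 in MI6h_R. The level was 103, 86.0 and 94.2 CPM in MI24h_F, 65.0, 72.5 and 72.1 in MI24h and 174, 119 and 184 in Sham. All injured libraries were below the lowest Sham library, and within each injury all libraries with F were above those without. Opa1 fell 1.87-fold in MI1h_R (log2 fold change -0.90 ± 0.15), 2.04-fold in MI6h_R (-1.03 ± 0.15) and 2.28-fold in MI24h (-1.19 ± 0.16), with edgeR adjusted p of 1.25e-04, 2.27e-05 and 6.40e-06 in that order. With F it was called lower too, at -0.65 in MI1h_F, -0.65 in MI6h_F and -0.75 in MI24h_F. This fall depended on the scaling, since with library size alone the log2 fold change was -0.44 in MI24h but 0.17 in MI1h_F and 0.16 in MI6h_F, and on TPM only MI24h stayed below 0, at -0.15. Opa1 was called higher on TPM in MI1h_F (0.46, limma adjusted p 0.0165) and MI6h_F (0.44, 0.0209).

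Dnm1l, the fission GTPase, had log2 fold changes against Sham that were smaller in size than those of Mfn1 and Opa1 in all 6 groups. It had 125, 112 and 111 CPM in MI1h_F and 101, 126 and 93.4 in MI1h_R. In MI6h_F it had 137, 185 and 127 CPM and in MI6h_R 90.8, 92.5 and 101. The level was 159, 134 and 127 CPM in MI24h_F, 90.0, 91.8 and 89.5 in MI24h and 160.0, 110.3 and 145 in Sham. All libraries of MI6h_R and MI24h were below all of Sham, and the other groups overlapped Sham. Dnm1l fell by the edgeR call in MI6h_R (log2 fold change -0.55 ± 0.16, adjusted p 0.00845) and MI24h (-0.62 ± 0.17, adjusted p 0.00419), and these 2 values became 0.31 and 0.12 with library size alone and 0.64 and 0.40 on TPM. The TPM value was called higher in MI6h_R (limma adjusted p 0.00436) and not called in MI24h (0.0636). In MI1h_R the value was -0.37 ± 0.16 with an adjusted p of 0.0669, which became 0.0274 without MI1h_R library 31 and 0.0183 without Sham library 31. The TPM value in MI1h_R was 0.51, called higher (limma adjusted p 0.0217). With F the values were -0.26 in MI1h_F, 0.11 in MI6h_F and 0.015 in MI24h_F, and none was called, but on TPM they were 0.83 (limma adjusted p 6.43e-04), 1.17 (1.96e-05) and 1.03 (7.49e-05).

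Pink1, the kinase that accumulates on mitochondria that have lost their membrane potential, had 142, 259.9 and 306 CPM in MI1h_F and 199, 173 and 131 in MI1h_R. It had 201, 97.9 and 75.4 CPM in MI6h_F and 121, 87.0 and 249 in MI6h_R. The level was 63.4, 82.8 and 75.5 CPM in MI24h_F, 181, 178 and 162 in MI24h and 1406, 1446 and 1999.6 in Sham. No injured library came near Sham, and the 3 MI24h_F libraries were tight and low while those of both 6 h groups were widely spread. Against Sham, Pink1 fell 6.86-fold in MI1h_F, 9.63-fold in MI1h_R, 13.0-fold in MI6h_F, 10.6-fold in MI6h_R, 21.9-fold in MI24h_F and 9.32-fold in MI24h. The log2 fold change was -4.45 ± 0.42 in MI24h_F and -3.22 ± 0.40 in MI24h, with edgeR adjusted p of 1.48e-07 and 3.59e-06. On TPM, the scale with the smallest fall, it was still -1.72 in MI1h_F and -3.39 in MI24h_F.

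Fundc1, an outer membrane mitophagy receptor known from hypoxia, had larger falls than Opa1 in all 3 injuries without F, by the fitted values. It had 28.7, 25.3 and 31.2 CPM in MI1h_F and 24.0, 26.7 and 16.3 in MI1h_R. In MI6h_F it had 30.7, 35.4 and 24.8 CPM and in MI6h_R 16.5, 12.5 and 16.0. The level was 35.8, 26.4 and 23.04 CPM in MI24h_F, 11.1, 17.05 and 21.9 in MI24h and 54.1, 64.1 and 73.8 in Sham. Sham was above every injured library, and all libraries with F were above those without in the 6 h and 24 h injuries. Fundc1 fell 2.87-fold in MI1h_R (log2 fold change -1.52 ± 0.25), 4.26-fold in MI6h_R (-2.09 ± 0.25) and 3.83-fold in MI24h (-1.94 ± 0.25), with edgeR adjusted p of 7.40e-05, 2.23e-06 and 5.35e-06 in that order. With F it fell between 2.11-fold in MI6h_F and 2.25-fold in MI1h_F by the same scaling, while with library size alone the adjusted p of those groups was 0.158 in MI1h_F, 0.283 in MI6h_F and 0.103 in MI24h_F. The TPM value in MI6h_F was 0.0051, on the other side of 0.

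Bnip3l, also called NIX, is a mitophagy receptor that responds to hypoxia and clears mitochondria from maturing red cells. It had 141, 132 and 158 CPM in MI1h_F and 105, 122.6 and 69.7 in MI1h_R. In MI6h_F it had 143, 206 and 171 CPM and in MI6h_R 127, 97.3 and 81.9. The level was 289, 304 and 270.1 CPM in MI24h_F, 218, 124 and 196 in MI24h and 145, 176 and 158 in Sham. All MI24h_F libraries were above every other library, and all those of both reperfused groups without F were below Sham. Bnip3l rose 1.80-fold in MI24h_F against Sham (log2 fold change 0.85 ± 0.22, adjusted p 0.00321), and this was larger with library size alone (1.60) and on TPM (1.85). It fell in MI1h_R (-0.69 ± 0.22, adjusted p 0.0167) and MI6h_R (-0.64 ± 0.22, adjusted p 0.0203), where library size alone gave 0.061 and 0.21 and TPM 0.17 and 0.52. The TPM value was called higher in MI6h_R (limma adjusted p 0.0260) and not called in MI1h_R (0.466).

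Both of these calls for Bnip3l were also lost when some single libraries were left out. In MI1h_R the adjusted p for Bnip3l was 0.0920 without MI1h_R library 41 and 0.0525 without Sham library 31. In MI6h_R it was 0.0641 without MI6h_R library 21, 0.0962 without MI6h_R library 31 and 0.0726 without Sham library 31. In the other 3 injured groups Bnip3l had log2 fold changes against Sham of -0.15 in MI1h_F, 0.12 in MI6h_F and 0.17 in MI24h, none of them called by edgeR. On TPM they were 0.92, 1.17 and 1.11, all called higher (limma adjusted p 5.25e-04, 4.82e-05 and 8.88e-05).

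Tfam, the packaging and transcription factor of mitochondrial DNA, had 60.3, 57.4 and 72.9 CPM in MI1h_F and 83.2, 84.2 and 60.9 in MI1h_R. In MI6h_F it had 62.5, 65.1 and 54.5 CPM and in MI6h_R 61.9, 45.4 and 61.0. The level was 64.2, 67.8 and 57.8 CPM in MI24h_F, 64.7, 69.6 and 94.8 in MI24h and 72.7, 135 and 119 in Sham. One Sham library, number 11, lay within the range of the injured libraries, and the other two were above all of them. Tfam fell by the edgeR call in every group, with log2 fold changes of -0.78 in MI1h_F, -0.52 ± 0.21 in MI1h_R (adjusted p 0.0490), -0.85 in MI6h_F, -0.96 ± 0.21 in MI6h_R (adjusted p 8.85e-04), -0.79 in MI24h_F and -0.51 ± 0.21 in MI24h (adjusted p 0.0471), but on TPM all 6 values were above 0, between 0.17 in MI6h_R and 0.43 in MI24h. The TPM value in MI24h was called higher (limma adjusted p 0.0379), and those of the other groups were not called. With library size alone the values lay between -0.098 in MI6h_R and 0.25 in MI1h_R.

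The weaker Tfam calls were lost when any of several single libraries was left out. In MI24h the adjusted p for Tfam was 0.172 without MI24h library 11, 0.136 without MI24h library 21, 0.227 without Sham library 31 and 0.119 without Sham library 41. In MI1h_R it was 0.0598, 0.0556 and 0.189 without MI1h_R library 11, 31 or 41, and 0.231 and 0.126 without Sham library 31 or 41.

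Nrf1, nuclear respiratory factor 1, was the one gene of the 8 whose log2 fold change against Sham was above 0 in all 6 groups under every alternative tried. It had 13.2, 16.1 and 13.4 CPM in MI1h_F and 12.6, 9.43 and 14.7 in MI1h_R. In MI6h_F it had 18.1, 17.5 and 17.9 CPM and in MI6h_R 16.4, 19.98 and 15.5. The level was 15.5, 14.7 and 15.8 CPM in MI24h_F, 20.7, 14.4 and 15.1 in MI24h and 12.7, 8.10 and 7.79 in Sham. All groups but MI1h_R lay above Sham without overlap, and MI1h_R overlapped it through the highest Sham library, number 11. Nrf1 rose 1.87-fold in MI6h_F, 1.82-fold in MI6h_R (log2 fold change 0.86 ± 0.21), 1.61-fold in MI24h_F and 1.76-fold in MI24h (0.81 ± 0.21), with edgeR adjusted p of 0.00148, 0.00213, 0.00987 and 0.00363 in that order. In MI1h_R the value was 0.36 ± 0.21 with an adjusted p of 0.171, which became 0.0291 without Sham library 11.

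In MI1h_F, Nrf1 was called at 0.58 ± 0.21 with an adjusted p of 0.0329. That call for Nrf1 was lost without MI1h_F library 4 (adjusted p 0.116), MI1h_F library 5 (0.0567), Sham library 31 (0.0977) or Sham library 41 (0.135). Per length it had 13.1 ± 3.19 TPM in MI24h and 3.81 ± 1.76 TPM in Sham (SD, n = 3), where it was the lowest of the 8.

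The groups with F were set against the same Sham libraries. In MI1h_F, 5 of the 8 genes were lower and 1 higher, where 48.2% of all genes were called (23.9% higher and 24.2% lower). In MI6h_F, 5 were lower and 1 higher, where 57.2% of all genes were called (28.6% higher and 28.5% lower). In MI24h_F, 5 were lower and 2 higher, where 60.8% of all genes were called (30.7% higher and 30.1% lower). Mfn1, Opa1, Pink1, Fundc1 and Tfam were the 5 called lower in each of these groups.

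**Figure D2:**
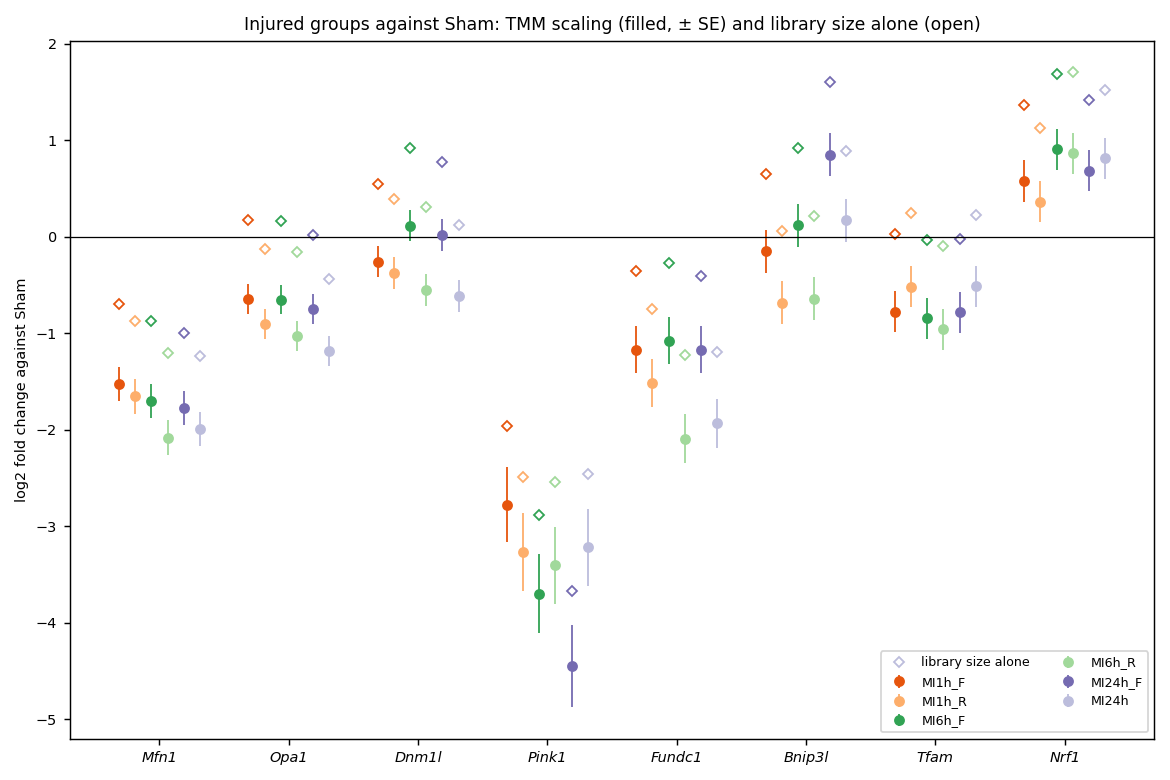
Log2 fold change against Sham on the vertical axis for each gene and injured group, filled with TMM scaling and its SE and open with library size alone. Mfn1 and Pink1 lie below 0 on both scales in all groups and Nrf1 above 0, while the open points of Dnm1l are all above 0.

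Levels of different genes were compared on the TPM scale, which divides by transcript length. In Sham, Pink1 led with 525 ± 26.3 TPM, and Tfam (49.4 ± 14.3), Mfn1 (42.5 ± 2.40), Opa1 (29.0 ± 7.72), Bnip3l (26.4 ± 4.97), Dnm1l (25.2 ± 7.69) and Fundc1 (19.0 ± 1.196) followed, with Nrf1 last at 3.81 ± 1.76 (SD, n = 3). Tfam and Mfn1 did not differ beyond their spread in Sham, and neither did Opa1, Bnip3l and Dnm1l, while all Fundc1 values there were below all of theirs. In MI24h_F the order was another one, with Bnip3l first at 96.5 ± 5.93 TPM, then Tfam at 61.5 ± 7.58, Dnm1l at 51.4 ± 6.46 and Pink1 at 49.6 ± 6.63. In MI24h, Pink1 was still first at 116 ± 18.9 TPM, before Tfam at 65.6 ± 9.14 and Bnip3l at 58.7 ± 14.2, and the last pair did not differ beyond their spread.

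Ratios between 2 genes within a library do not depend on how libraries are scaled. In all, 6 ratios were compared between the 18 injured and the 3 Sham libraries by a two-sided exact permutation test. It ran over 1330 arrangements, and its smallest possible p is 0.0015. Every ratio but Nrf1 over Tfam reached that smallest p. The test pooled the 6 injured groups as 1, and the 3 ratios among Dnm1l, Mfn1 and Opa1 are not independent of each other. The ratio of the fission gene Dnm1l to the outer membrane fusion gene Mfn1 had a log2 value of 0.28 to 1.44 in injured libraries and -1.05 to -0.38 in Sham, a mean difference of 1.51 (adjusted p 0.00180). Every injured library was thus above every Sham library. Dnm1l over Opa1 was higher by 0.57 in injured libraries, and Mfn1 over Opa1 differed by -0.93, again without overlap and with the same adjusted p. Mfn1 therefore fell relative to Opa1, and Opa1 relative to Dnm1l, whatever the scaling between libraries. A ratio does not remove a trend of counts with gene length, described below, and no ratio was made with that trend removed. Mfn1 over Opa1 was 0.24 in Sham library 11 and 0.82 and 0.69 in Sham libraries 31 and 41. With the trend removed, the log2 fold changes in MI24h against Sham were -2.09 for Mfn1, -1.34 for Opa1 and -0.77 for Dnm1l.

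Among the mitophagy genes, Bnip3l over Pink1 ran from -2.61 to 1.19 on the log2 scale in injured libraries and from -4.67 to -4.04 in Sham, a difference of 3.44 with an adjusted p of 0.00180. Its mean was 0.97 in MI24h_F, the one group with all 3 libraries above 0. Fundc1 over Pink1 was higher by 2.01 in injured libraries, without overlap and with the same adjusted p. The biogenesis ratio Nrf1 over Tfam was higher by 1.46 (adjusted p 0.00602), and here 1 Sham library lay inside the injured range. With the 9 injured libraries without F alone, the 6 differences ran from -0.88 for Mfn1 over Opa1 to 2.92 for Bnip3l over Pink1.

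**Figure D3:**
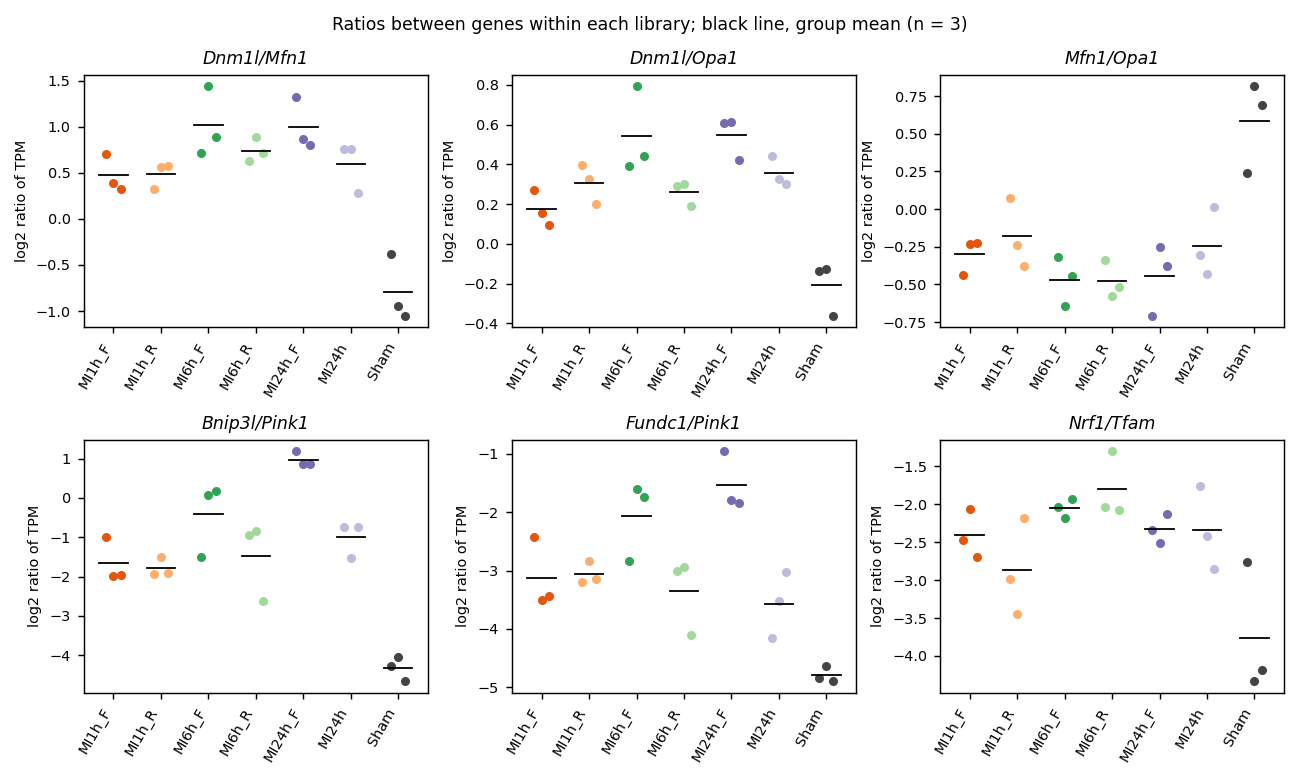
Log2 ratio of the TPM of 2 genes in each library on the vertical axis, with the 7 groups along the horizontal axis and a black line at each mean of 3. In 5 of the 6 ratios no injured library overlaps Sham, and for Nrf1 over Tfam 1 Sham library lies among the injured ones.

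Set against the summed cardiomyocyte markers, Pink1 stood apart from the other 7 genes. Its log2 level relative to that sum differed from Sham by -0.56 to 0.078 over the 6 injured groups, so the fall of Pink1 was close in size to that of the summed markers. The same difference was 1.00 to 2.59 for Mfn1, 1.00 to 3.16 for Fundc1 and 1.82 to 3.61 for Opa1, so these fell less than the markers. For Tfam it was 1.80 to 3.61, for Dnm1l 2.29 to 4.37, for Bnip3l 1.99 to 5.20 and for Nrf1 3.09 to 5.07. These values are a description, and the part of cell loss in the falls was not tested. Monocyte and macrophage markers, 10 of 11 measured, summed to between 3133 and 8463 CPM in the injured libraries and between 873 and 2946 in Sham.

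**Figure D4:**
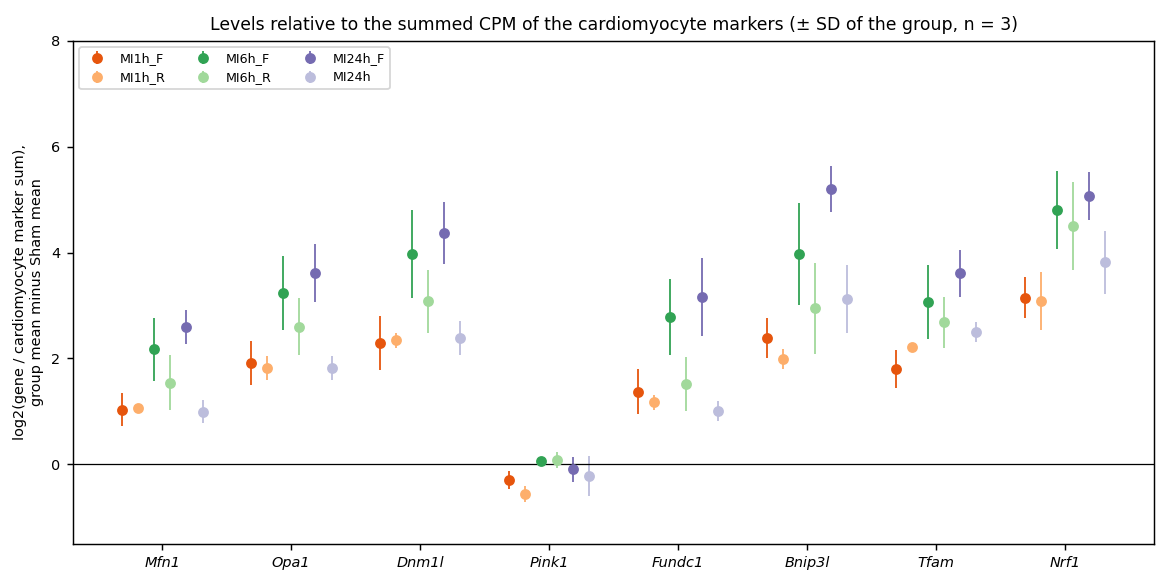
Log2 level of each gene relative to the summed CPM of 13 cardiomyocyte markers, as the group mean minus the Sham mean, with the SD of the group over 3 libraries. Pink1 lies between -0.56 in MI1h_R and 0.078 in MI6h_R, and every other gene lies above 0 in all 6 groups.

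The 3 injuries without F were compared with each other. They differ in the length of ischemia and of reperfusion together, so the effects of these cannot be told apart. Bnip3l was the single gene of the 8 that edgeR called, in MI1h_R against MI24h, where 4.32% of all genes were called (1.51% higher and 2.81% lower). It fell 1.81-fold in MI1h_R against MI24h (log2 fold change -0.86 ± 0.22, adjusted p 0.0371). The call was lost without MI24h library 11 (adjusted p 0.248), MI24h library 41 (0.0801), or MI1h_R library 11 (0.0924), 31 (0.0553) or 41 (0.0782).

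In MI6h_R against MI24h none of the 8 was called by edgeR, where 0.502% of all genes were, although 2 had an unadjusted p under 0.05 and DESeq2 called 1. Of all 11742 genes DESeq2 called 197 there. Bnip3l there was -0.81 ± 0.22 with an adjusted p of 0.145, which became 0.0322 without MI24h library 21. In MI1h_R against MI6h_R none was called, where 2.41% of all genes were, with 3 at an unadjusted p under 0.05, 0 by DESeq2 and 4 by limma-voom with quality weights. Of all 11742 genes, DESeq2 called 906 and limma-voom 3020 in this comparison. By edgeR, Mfn1, Opa1, Dnm1l, Pink1, Fundc1, Tfam and Nrf1 had no call between injuries without F.

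Among the groups with F, Pink1 and Bnip3l were called in opposite directions between early reperfusion and permanent ligation. Pink1 was 3.19-fold higher in MI1h_F than in MI24h_F (log2 fold change 1.67 ± 0.38, adjusted p 0.00880), and Bnip3l 2.00-fold lower (-1.0005 ± 0.22, adjusted p 0.00877). In that comparison 15.6% of all genes were called (8.87% higher and 6.74% lower). The Pink1 libraries of the 2 groups did not overlap, and neither did those of Bnip3l. Both calls held without each library in turn. The cardiomyocyte marker sum moved the same way as Pink1, with 11711 to 20217 CPM in MI1h_F and 3295 to 5819 in MI24h_F, and its part in the result was not tested. In MI6h_F against MI24h_F edgeR called none of the 8 (1 at an unadjusted p under 0.05, 0 by DESeq2, 1 by limma-voom), with 0.485% of all genes called, and in MI1h_F against MI6h_F none (2 at an unadjusted p under 0.05, 0 by DESeq2, 1 by limma-voom), with 0.0%. Of all 11742 genes, limma-voom called 344 in the former comparison and 1392 in the latter, and DESeq2 called 205 and 88.

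Hearts with F were compared with the same injury without F. Averaged over the 3 injuries, 9 libraries against 9, Opa1, Dnm1l, Fundc1 and Bnip3l were higher with F, and no member was called lower. edgeR thus called 4 of the 8, where 27.1% of all genes were called (11.3% higher and 15.7% lower). Fundc1 rose 1.63-fold (log2 fold change 0.71 ± 0.14, adjusted p 0.00142) and Bnip3l 1.58-fold (0.66 ± 0.13, adjusted p 0.00129). Dnm1l rose 1.39-fold (0.47 ± 0.095, adjusted p 0.00161) and Opa1 1.28-fold (0.36 ± 0.089, adjusted p 0.00668). These 4 calls held without each of the 18 libraries in turn.

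The other 4 genes were not called for F on average. Mfn1 had 0.24 ± 0.10 with an adjusted p of 0.0792, which became 0.0345 without MI24h library 41 and 0.0297 with library size alone. Pink1 had -0.34 ± 0.21, Tfam -0.14 ± 0.12 and Nrf1 0.044 ± 0.12, with adjusted p of 0.248, 0.426 and 0.821 in that order.

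Under permanent ligation, 3 of the 8 genes were called for F, where 13.0% of all genes were called (5.19% higher and 7.78% lower). Dnm1l rose (0.63 ± 0.17, adjusted p 0.0192), Fundc1 rose (0.76 ± 0.24, adjusted p 0.0463) and Pink1 fell 2.35-fold (-1.23 ± 0.37, adjusted p 0.0371) in MI24h_F against MI24h. The libraries of the 2 groups did not overlap for any of the 3. Bnip3l and Opa1 just missed the threshold, at 0.68 ± 0.22 (adjusted p 0.0520) and 0.43 ± 0.15 (adjusted p 0.0703), also without overlap. The summed cardiomyocyte markers were 3295 to 5819 CPM in MI24h_F and 9271 to 14044 in MI24h, again moving with Pink1, and their part was not tested.

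None of the 3 calls under permanent ligation held without each library in turn. Over the whole table the calls also fell, from 1523 to 961, 876 and 854 without MI24h library 11, 21 or 41. The Pink1 call was lost without any of the 6, with adjusted p of 0.149, 0.0723 and 0.0862 without MI24h_F library 1, 2 or 4 and 0.0794, 0.0809 and 0.0683 without MI24h library 11, 21 or 41. Dnm1l had 0.106 without MI24h_F library 1 and 0.0517, 0.0511 and 0.0550 without MI24h library 11, 21 or 41. Fundc1 had 0.226 and 0.0753 without MI24h_F library 1 or 2 and 0.170 and 0.1002 without MI24h library 11 or 21. Without MI24h library 11, Bnip3l passed, at 0.0441. The log2 fold changes themselves stayed between -1.32 and -1.13 for Pink1, 0.53 and 0.70 for Dnm1l and 0.54 and 1.01 for Fundc1.

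With late reperfusion, Dnm1l (0.66 ± 0.16, adjusted p 0.0198), Fundc1 (1.01 ± 0.24, 2.02-fold, adjusted p 0.0173) and Bnip3l (0.76 ± 0.22, adjusted p 0.0392) rose in MI6h_F against MI6h_R. These are 3 of the 8, where 9.62% of all genes were called (3.92% higher and 5.71% lower). No library of MI6h_F overlapped MI6h_R for these 3 genes. Without MI6h_R library 21 the adjusted p was 0.0664 for Dnm1l, 0.0749 for Fundc1 and 0.116 for Bnip3l, and without MI6h_F library 2 it was 0.123, 0.0876 and 0.174. Dnm1l was also lost without MI6h_R library 11 (0.0789), and Bnip3l without MI6h_R library 31 (0.134) or MI6h_F library 4 (0.0687).

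With early reperfusion edgeR called none of the 8 in MI1h_F against MI1h_R, where 0.0766% of all genes were called, with 1 at an unadjusted p under 0.05 and 0 by DESeq2 or limma-voom. Of all 11742 genes, DESeq2 called 317 and limma-voom 2776. Bnip3l was nearest, at 0.54 ± 0.22 with an adjusted p of 0.251. Whether the F effect differed between injuries was tested as an interaction, and edgeR called none of the 8 in any of the 3 tests, in which 0.0%, 0.0% and 0.00852% of all genes were called. Pink1 had the largest such difference, 1.72 ± 0.52 for the F effect in the 1 h injury minus that in the 24 h injury, with p 0.00401 and an adjusted p of 0.171 by edgeR. In that test 2 of the 8 had an unadjusted p under 0.05 and limma-voom called 1, beside 2003 of all 11742 genes. The 6 h injury against the 24 h injury gave 0 at an unadjusted p under 0.05 and the 1 h against the 6 h injury gave 1, with none called by DESeq2 or limma-voom in either.

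**Figure D5:**
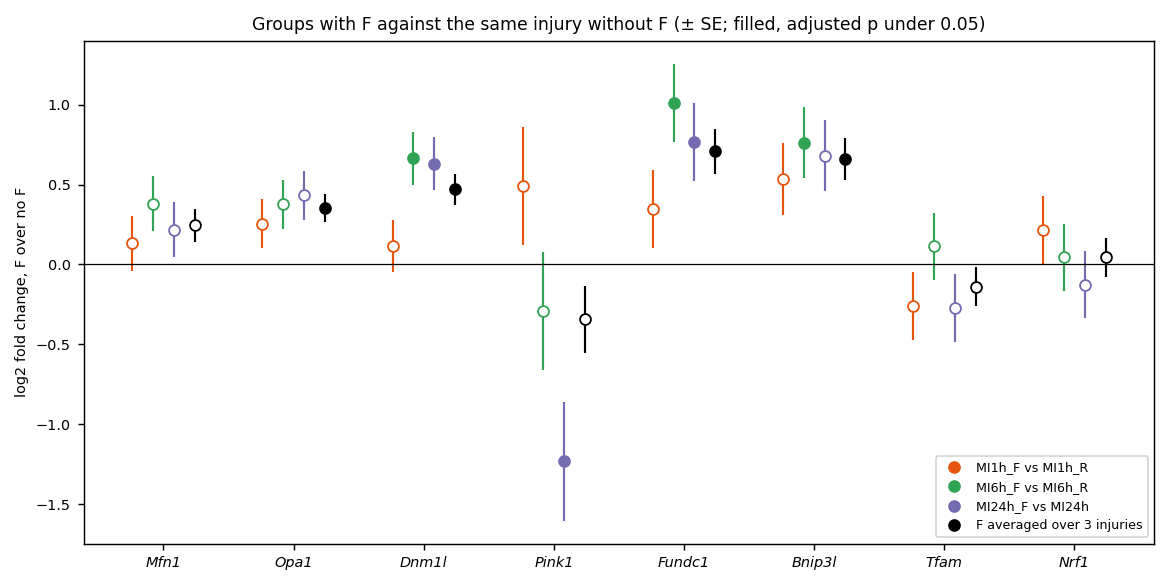
Log2 fold change with F over without F, with its SE, for each gene in the 1 h, 6 h and 24 h injuries and averaged over the 3, filled where the adjusted p was under 0.05. The averages of Opa1, Dnm1l, Fundc1 and Bnip3l are filled and above 0, and the values of Pink1 spread from -1.23 to 0.49.

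Other measures moved with F as well. Red cell markers, 6 of 9 measured and none of them at 0 throughout, summed to 2998 to 4221 CPM in MI1h_F and 900.2 to 2384 in MI1h_R. They summed to 4662 to 11536 CPM in MI6h_F and 2426 to 5409.6 in MI6h_R, and to 4172 to 13028 CPM in MI24h_F and 1317 to 4175 in MI24h. Their part in the rise of Bnip3l, a gene of red cell maturation, was not tested. The 8 fibroblast markers, none at 0 throughout, summed to 8598 to 11184 CPM in MI1h_F and 3365 to 5630.5 in MI1h_R. Their sum was 4193 to 10014 CPM in MI6h_F and 2063 to 3098 in MI6h_R, and 4216 to 5006 CPM in MI24h_F and 2264 to 3844 in MI24h. In each injury the libraries with F were above those without for the fibroblast sum, and the part of these cells in the F calls was not tested. The neutrophil sum was lower with F in the 6 h injury, with 711 to 895 CPM in MI6h_F and 1183 to 1352 in MI6h_R. It overlapped in the other injuries. The range was 251 to 583 CPM in MI1h_F and 488 to 925 in MI1h_R, and 1300 to 1526 CPM in MI24h_F and 510 to 3055 in MI24h. The part of neutrophils was not tested either.

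A trend of the counts with gene length also differed. The trend was measured as the log2 level of the longest 10% of genes minus that of the shortest 10%, with length read from the ratio of counts to TPM, and ran from 0.030 to 0.336 in the 9 libraries with F (median 0.292) and from -0.606 to 0.446 in the 9 injured ones without (median -0.0013). In the 3 Sham libraries it was 0.11, -1.03 and -0.90, so that 2 of them were below every injured library. With that trend removed, no call of the 8 genes against Sham was lost, and Dnm1l was also called lower in MI1h_R (adjusted p 0.0250) and MI1h_F (0.0307). Opa1, Dnm1l and Bnip3l are longer than at least 75.7% of the tested genes, and Fundc1 than 46.8%. With that trend removed, the averaged F effect was 0.31 for Opa1, 0.42 for Dnm1l, 0.75 for Fundc1 and 0.59 for Bnip3l, and all 4 were still called, with a largest adjusted p of 0.0146. In MI6h_F against MI6h_R the adjusted p of Bnip3l became 0.0609. The labels give no sequencing batch or date.

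Among the 18 injured libraries, Opa1, Dnm1l and Fundc1 varied together. Pearson's r of log2 CPM was 0.830 between Opa1 and Dnm1l, 0.847 between Opa1 and Fundc1 and 0.821 between Dnm1l and Fundc1. The r of Pink1 was -0.0549 with Opa1, -0.417 with Dnm1l and -0.104 with Fundc1. That of Tfam with Nrf1 was -0.628. These are descriptions over libraries that share their scaling and fall into 6 groups.

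By Pearson's r of log2 CPM, the 3 of 8105 candidates closest to Pink1 were Acsf2, an acyl-CoA synthetase, Gatd3a and Mlycd, the malonyl-CoA decarboxylase, over the 21 libraries (r 0.995, 0.994 and 0.994) and again over the 18 injured ones (0.978, 0.973 and 0.973). For Mfn1 they were Dld, the dihydrolipoamide dehydrogenase, Vdac3, an outer membrane channel, and Immt, the cristae organizer mitofilin, over 21 libraries (0.989, 0.988 and 0.988). Over the 18 injured libraries Adk, adenosine kinase, took the place of Immt, with r of 0.924. For Dnm1l over the 18 libraries they were Uba6, Zfp638 and Yme1l1, the inner membrane protease that cleaves OPA1 (0.961, 0.960 and 0.955). Those of Bnip3l were Ssr3, Bmt2 and Rnf2 (0.922, 0.915 and 0.902).

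Neighbours of the 8 genes in each process were taken from lists that leave the 8 out. Of 16 tested genes of fusion and inner membrane shape, 12 fell and none rose in MI24h against Sham, beside 26.2% of all genes called lower and 28.0% higher. With library size alone 7 were lower and 2 higher, beside 1504 and 6484 of all 11742 genes. On TPM 5 were lower and 5 higher, beside 1208 and 7375 of all genes. Over the 6 injured groups, 11 to 13 fell and 0 to 1 rose with TMM. Their median log2 fold change in MI24h was -1.10, beside 0.073 for all genes. Samm50, which links the outer membrane to the cristae, fell by 2.01 ± 0.18 on the log2 scale (adjusted p 2.96e-07), and Immt had -1.63 ± 0.17 (adjusted p 7.78e-07). With F, Yme1l1 was higher on average by 0.57 ± 0.086 (adjusted p 1.72e-04), and Phb2, a prohibitin that also serves as a mitophagy receptor, had -0.45 ± 0.083 (adjusted p 7.63e-04).

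Of 10 tested fission genes, 5 fell and 1 rose in MI24h against Sham, beside 26.2% of all genes called lower and 28.0% higher. With library size alone 5 were lower and 4 higher, beside 1504 and 6484 of all 11742 genes. On TPM 2 were lower and 5 higher, beside 1208 and 7375 of all genes. Over the 6 groups, 5 fell and 1 to 2 rose. Mtfp1, an inner membrane protein of fission, had a log2 fold change of -3.06 ± 0.31 in MI24h (adjusted p 7.44e-07) and -3.83 ± 0.33 in MI6h_R (adjusted p 1.82e-07). Inf2, a formin that builds actin where the reticulum touches mitochondria, rose in MI24h (1.32 ± 0.16, adjusted p 3.09e-06) and was called higher in all 6 injured groups. Both kept these directions on each scale tried. With F averaged, Mief2, an adaptor that recruits DRP1, had -0.48 ± 0.13 (adjusted p 0.00828).

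Of 12 tested genes of the PINK1 pathway, 4 fell and none rose in MI24h against Sham, beside 26.2% of all genes called lower and 28.0% higher. The count was 2 lower and 8 higher with library size alone, beside 1504 and 6484 of all 11742 genes. On TPM it was 1 lower and 9 higher, beside 1208 and 7375 of all genes. Over the 6 groups, 4 to 7 fell and 0 to 3 rose with TMM. Optn, an adaptor between ubiquitin and the autophagosome, had -1.70 ± 0.22 (adjusted p 6.69e-06), and Park7, the redox sensor DJ-1, -1.38 ± 0.24 (adjusted p 9.23e-05). Both were below 0 on all 3 scales. Sqstm1, the adaptor p62, had 199.999, 257 and 235 CPM in MI24h_F, 467, 268 and 438 in MI24h and 296, 461 and 552 in Sham. In TPM the values were 346, 216 and 285 in MI24h and 138, 174 and 156 in Sham. On that scale Sqstm1 in every MI24h library was above Sham. With F it fell on average by the edgeR call (-0.51 ± 0.13, adjusted p 0.00823), as did Tomm7, which helps to hold PINK1 at the outer membrane (-1.63 ± 0.28, adjusted p 5.37e-04), while Tax1bp1, another adaptor, rose (0.54 ± 0.082, adjusted p 1.94e-04).

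Among 6 further mitophagy receptors and partners, 2 fell and 1 rose in MI24h, 3 fell and 2 rose in MI1h_R and 3 fell and 1 rose in MI6h_R against Sham. Of all genes, 26.2% were called lower and 28.0% higher in MI24h, 24.1% and 25.4% in MI1h_R, and 28.0% and 29.3% in MI6h_R. Library size alone gave 1 lower and 2 higher, 2 lower and 2 higher and 3 lower and 3 higher in the same order of groups. Of all 11742 genes it called 1504 lower and 6484 higher, 1273 and 6597, and 1510 and 6878 in that order. Bnip3, the close relative of Bnip3l and also a hypoxia target, was lower after reperfusion than under permanent ligation. It had 56.6, 75.5 and 56.2 CPM in MI1h_R, 80.0, 35.9 and 77.0 in MI6h_R, 251, 135 and 287 in MI24h and 349, 347 and 474 in Sham. All reperfused libraries without F were below all those of MI24h. With TMM those of MI24h were below Sham (log2 fold change -0.80, adjusted p 0.0617), but library size alone gave -0.061 and TPM gave 0.15. Bnip3 fell in MI1h_R against MI24h (-1.84 ± 0.36, adjusted p 0.00830) and in MI6h_R against MI24h (-1.80 ± 0.36, adjusted p 0.0236). In MI1h_F against MI24h_F it fell as well (-1.53 ± 0.36, adjusted p 0.00997), and averaged over injuries F gave 0.23 ± 0.20 (adjusted p 0.428).

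Targets of the hypoxia factor HIF, Bnip3 among them, were described the same way. Of 11 tested, 9 fell and none rose in MI1h_R against MI24h, beside 2.81% of all genes called lower and 1.51% higher. In MI1h_F against MI24h_F, 9 fell and none rose, beside 6.74% and 8.87% of all genes. Their median log2 fold change was -1.84 and -1.53 in these comparisons, beside 0.00094 and 0.029 for all genes. Slc2a1, the glucose transporter GLUT1, had -2.47 ± 0.35 in MI1h_R against MI24h (adjusted p 0.00185) and -2.74 ± 0.35 in MI1h_F against MI24h_F (adjusted p 6.77e-04). For F averaged over injuries, 1 fell and none rose, beside 15.7% of all genes called lower and 11.3% higher.

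Of 25 tested core autophagy genes, 8 fell and 1 rose in MI24h against Sham, beside 26.2% of all genes called lower and 28.0% higher. With library size alone 5 were lower and 15 higher, beside 1504 and 6484 of all 11742 genes. Over the 6 groups, 8 to 13 fell and 1 to 2 rose with TMM. Wipi1, which binds the growing autophagosome membrane, had -2.28 ± 0.23 (adjusted p 5.39e-07) and Map1lc3b, one of the LC3 proteins that mitophagy receptors bind, -1.42 ± 0.16 (adjusted p 1.53e-06), each below 0 on all 3 scales. Atg7, the enzyme that activates LC3 for lipid attachment, rose in MI24h (1.74 ± 0.26, adjusted p 2.39e-05) and in the other 5 groups.

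Of 16 tested biogenesis regulators, 7 fell and 3 rose in MI24h against Sham, beside 26.2% of all genes called lower and 28.0% higher. With library size alone 5 were lower and 7 higher, beside 1504 and 6484 of all 11742 genes. Over the 6 groups, 4 to 9 fell and 3 to 5 rose with TMM. Ppargc1a, the coactivator PGC-1α that works with NRF1 and the estrogen-related receptors, had 4.54, 9.54 and 11.2 CPM in MI1h_F, 2.33, 2.83 and 4.89 in MI1h_R, 0.529, 1.40 and 1.25 in MI24h_F, 1.31, 2.32 and 1.303 in MI24h and 32.3, 9.01 and 16.1 in Sham. It fell in MI24h (-3.53 ± 0.87, adjusted p 0.00220), while Pprc1, a relative of PGC-1α that is induced early by growth signals, rose (2.07 ± 0.17, adjusted p 1.51e-07). Sirt3, the mitochondrial deacetylase, had -2.51 ± 0.23 (adjusted p 3.23e-07). These 3 directions in MI24h were the same on all 3 scales.

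Esrra, an estrogen-related receptor that works with PGC-1α, had lower values with F in all 3 injuries, and the libraries with and without F did not overlap. It had 56.0, 76.2 and 66.4 CPM in MI1h_F and 91.0, 80.2 and 109 in MI1h_R, a log2 fold change of -0.50 ± 0.16 that was not called (adjusted p 0.169). It had 52.7, 56.4 and 50.2 CPM in MI6h_F and 113, 105 and 101 in MI6h_R. It had 57.3, 57.8 and 58.3 CPM in MI24h_F and 109.6, 110.0 and 126 in MI24h. It fell in MI6h_F against MI6h_R (adjusted p 0.00363) and in MI24h_F against MI24h (adjusted p 0.00276). Averaged over injuries the log2 fold change for F was -0.83 ± 0.095 (adjusted p 4.14e-05), in the opposite direction to Opa1, Dnm1l, Fundc1 and Bnip3l. Gabpa was not analysed here.

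Of 20 tested genes of mitochondrial DNA maintenance and transcription, Tfam's own setting, 12 fell and 3 rose in MI24h against Sham, beside 26.2% of all genes called lower and 28.0% higher. With library size alone 6 were lower and 5 higher, beside 1504 and 6484 of all 11742 genes. On TPM 5 were lower and 8 higher, beside 1208 and 7375 of all genes. Over the 6 groups, 9 to 12 fell and 2 to 3 rose with TMM. Dguok, which makes nucleotides for mitochondrial DNA, had -2.05 ± 0.30 (adjusted p 1.97e-05) and Lrpprc, which stabilises mitochondrial transcripts, -1.54 ± 0.21 (adjusted p 1.03e-05). Polg, the polymerase of mitochondrial DNA, rose in MI24h (1.12 ± 0.20, adjusted p 1.09e-04), and Primpol, a primase-polymerase that restarts stalled replication, rose in MI24h (1.49 ± 0.37, adjusted p 0.00258) and with F averaged over injuries (0.85 ± 0.19, adjusted p 0.00351). All 4 kept their direction in MI24h on each scale.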

How the data were processed

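RNA was extracted from infarct zone tissue, and polyadenylated RNA libraries were sequenced on an Illumina instrument, per the labels' protocols. STAR 2.7.3a, RSEM 1.3.1 and the rn7 genome are named in the submitters' processing notes, while the annotation and strandedness are not given in the sources used here. The authors deposited RSEM estimated counts as whole numbers and a table of TPM, whose sums ran from 924437.59 to 972242.14 per library.

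The counts were rounded and fitted with edgeR 4.0.16 in R 4.3.3, using TMM factors, filterByExpr on the 7 groups, 1 term per group over all 21 libraries and quasi-likelihood tests, with Benjamini-Hochberg adjustment over 11742 genes and calls at an adjusted p under 0.05. The genes left untested held 0.0231% of the counts. CPM values use the TMM factors, with a prior count of 2 for log2 values. The deposited TPM were tested as log2(TPM + 1) with limma 3.58.1, and fold changes on that scale understate the change of low genes. The ratios were tested with scipy 1.17.1. DESeq2 1.42.0 and limma-voom with quality weights were alternatives, as were a required 1.5-fold change, other scalings and filters, a replicate block and each library left out. On data simulated for MI24h against Sham over 11742 genes, edgeR found 6 of 50 genes changed 1.5-fold, 24 of 50 changed 2-fold and 46 of 50 changed 4-fold, with 10 false calls among 11542. The simulation left those 11542 genes unchanged, drew the changed ones from better expressed genes and held no shift in composition. In the data 54.3% of all genes were called in this comparison. The simulated rates therefore do not describe the tests reported here.

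The 8 genes and all lists were chosen with earlier results of these data known. Named list genes were the called ones of smallest p in each direction, with partners of the 8 chosen by name. The planned ratios to Mfn2 were replaced by ratios among Mfn1, Opa1 and Dnm1l after the files were seen. No pair of libraries of a group agreed within sampling noise, since the lowest chi-square per gene was 24.5.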

Additional observations from a re-analysis of the deposited data

How the results depend on the processing

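Calls for Mfn1 and Pink1 against Sham kept their direction under all alternatives, and so did the direction of Nrf1. The other genes turned in some settings. With library size alone, the log2 fold change against Sham was 0.12 in MI24h, 0.39 in MI1h_R, 0.31 in MI6h_R and 0.55 in MI1h_F for Dnm1l. It was 0.22 in MI24h, 0.25 in MI1h_R and 0.028 in MI1h_F for Tfam, and 0.061 in MI1h_R, 0.21 in MI6h_R and 0.65 in MI1h_F for Bnip3l. For Opa1 it was 0.013 in MI24h_F, 0.17 in MI1h_F and 0.16 in MI6h_F. On TPM, Dnm1l had 0.40 in MI24h, 0.51 in MI1h_R, 0.64 in MI6h_R and 0.83 in MI1h_F, and Bnip3l 0.17 in MI1h_R, 0.52 in MI6h_R and 0.92 in MI1h_F. Tfam had 0.43 in MI24h, 0.37 in MI1h_R, 0.17 in MI6h_R, 0.34 in MI24h_F, 0.37 in MI1h_F and 0.34 in MI6h_F. Opa1 had 0.012 in MI1h_R, 0.19 in MI6h_R, 0.29 in MI24h_F, 0.46 in MI1h_F and 0.44 in MI6h_F, and Fundc1 0.0051 in MI6h_F. Dnm1l and Bnip3l in MI6h_R, Tfam in MI24h and Opa1 in MI1h_F and MI6h_F were called lower with TMM and higher on TPM. These scalings also moved the median of all genes to between 0.72 and 0.99. Values near 0 turned elsewhere too. Bnip3l in MI24h was -0.056 by limma-voom and -0.014 with the length trend removed. Dnm1l in MI24h_F was -0.0139 with median-of-ratios factors, -0.0138 by DESeq2, -0.031 by limma-voom, -0.18 with the length trend removed, -0.038 with only the groups compared, and -0.082 to 0.16 without 1 library in turn (-0.082 without MI24h_F library 1 and -0.072 without Sham library 31). In MI6h_F, Dnm1l was -0.082 with the length trend removed and -0.061 to 0.24 without 1 library in turn, and Bnip3l -0.12 and -0.019 to 0.24, both lowest without MI6h_F library 2. The cause was not tested for these.

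Requiring a 1.5-fold change lowered the number of the 8 genes called against Sham to 4 in MI24h and 5 in MI6h_R. It lowered the number to 3 each in MI24h_F, MI1h_F and MI6h_F. Of all 11742 genes, that test called 3973, 4348, 4924, 3020 and 4331 against Sham in the same order of groups. The 1.5-fold test left 0 of the 8 for F averaged over injuries, beside 91 of all genes. It left 0 in MI24h_F against MI24h and MI6h_F against MI6h_R, beside 6 and 11 of all genes. It also left 0 in MI1h_R against MI24h and MI1h_F against MI24h_F, beside 58 and 293 of all genes. Library size alone gave 4 in MI6h_R against Sham, beside 8388 of all genes. It gave 5 in MI24h_F against MI24h, where DESeq2 and limma-voom also gave 5. In the latter comparison library size alone, DESeq2 and limma-voom called 1346, 2056 and 2916 of all 11742 genes. DESeq2 gave 1 in MI6h_R against MI24h, beside 197 of all genes. With limma-voom the count was 0 in MI1h_R against MI24h, 4 in MI1h_R against MI6h_R, 1 in MI6h_F against MI24h_F, 1 in MI1h_F against MI6h_F and 1 for the F effect in the 1 h minus the 24 h injury. Of all genes, limma-voom called 1509, 3020, 344, 1392 and 2003 in that order. In MI1h_R against MI24h the count was 0 with the length trend removed, chosen after seeing the data, beside 612 of all genes. It was also 0 with only the groups compared, where 0 of 11195 genes were called. Without 1 library in turn the counts ran from 0 to 1 in MI1h_R against MI24h and 0 to 1 in MI6h_R against MI24h. They ran from 0 to 2 in MI24h_F against MI24h and 0 to 3 in MI6h_F against MI6h_R. The calls over all genes changed too. In MI1h_R against MI24h they ran from 68 without MI24h library 11 to 943 without MI1h_R library 41, beside 507 with every library. In MI6h_R against MI24h they were 14, 110 and 33 without MI24h library 11, 21 or 41, beside 59 with every library. Such alternatives were also tallied for the log2 fold changes of the 8 genes against Sham, and in other comparisons where the gene was called. Of these values, 879 kept direction and side of the threshold, 109 lost the call, 18 gained one and 45 changed sign.

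By replicate number, 1 of 20 libraries correlated best with its own number, and mean correlations of deviations ran from -0.397 to 0.061. With so few libraries per number, this cannot exclude shared animals, days or batches. With a replicate block, the count fell to 0 in MI1h_R against MI24h and 0 in MI1h_F against MI24h_F. Of all 11742 genes, the fit with the block called 53 and 0 in these comparisons, and the fit without it 507 and 1832. No such fit could be made between groups with and without F, or between F groups and Sham, because they share no numbers. With 3 libraries a group, small changes are hard to detect at this depth.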

Other observations

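The machinery that builds new mitochondria also differed from Sham. Of 67 tested mitochondrial ribosome genes, 59 fell and none rose in MI24h against Sham, beside 26.2% of all genes called lower and 28.0% higher. With library size alone 31 were lower and 1 higher, beside 1504 and 6484 of all 11742 genes. On TPM 22 were lower and 8 higher, beside 1208 and 7375 of all genes. Over the 6 injured groups, 49 to 65 fell and 0 to 1 rose with TMM. Their median log2 fold change in MI24h was -1.18 with TMM, -0.43 with library size alone and -0.17 on TPM, beside 0.073, 0.80 and 0.83 for all genes. Mrpl16, a protein of the large subunit, had -2.25 ± 0.23 (edgeR adjusted p 6.95e-07). With F averaged over injuries, 22 fell and 3 rose, beside 15.7% of all genes called lower and 11.3% higher. Among them were Mrps7 of the small subunit at -0.88 ± 0.11 and Mrpl33 of the large subunit at 0.79 ± 0.13.

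Of 17 tested genes of mitochondrial protein import, 11 fell and none rose in MI24h against Sham, beside 26.2% of all genes called lower and 28.0% higher. With library size alone 6 were lower and 2 higher, beside 1504 and 6484 of all 11742 genes. On TPM 5 were lower and 7 higher, beside 1208 and 7375 of all genes. Grpel1, the exchange factor of the import motor, had -1.86 ± 0.20 (edgeR adjusted p 1.20e-06), and Timm8b, a small chaperone of the space between the membranes, -2.02 ± 0.22 (adjusted p 1.22e-06). With F averaged over injuries, 7 fell and none rose, beside 15.7% of all genes called lower and 11.3% higher, and Timm10, another of these chaperones, had -0.82 ± 0.15 (adjusted p 7.84e-04).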
